A study of Mus musculus with 6 samples.

Results

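The mitochondrial genome and the nuclear genes that copy, transcribe, process and translate it were followed in CD27SP NK cells with intact and with floxed Myc. The set holds 38 genes, namely the 13 protein genes that the mitochondrial genome itself encodes (the mt- genes) and 25 nuclear genes for mitochondrial DNA replication (4), transcription (7), RNA handling (6) and translation (8). The genes were taken by name and role, and no measured value enters the rule. The choice was made, however, with earlier results of these data known. All 38 were among the 25690 gene symbols of the tables, and all 38 passed the filter on low counts that left 15474 genes for testing. RNA-seq had been done on immature NK cells sorted from the bone marrow (BM) as NK1.1+, CD27+, CD11b- and CD3-. There were 3 Ncr1cre Myc wt/wt libraries, with intact Myc, and 3 Ncr1cre Myc fl/fl libraries, with both Myc alleles flanked by loxP sites. Mice of both groups carried Ncr1cre, in which the Cre recombinase is made in cells that express Ncr1, the gene of an NK cell receptor, and both were on a C57BL/6 background. The age of the mice is not given in the labels used here, while the methods of the study state an age range, with mice matched for sex and age. Nothing in the labels says that each library came from a separate mouse, so that the p-values measure the spread between these libraries, which may be technical.

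Mitochondria keep a small circular genome whose protein genes all encode subunits of the respiratory chain and of ATP synthase. A single nuclear-encoded polymerase, Polrmt, reads both strands of this circle into long transcripts with the help of Tfam and Tfb2m. The long transcripts are cut into single mRNAs, most of which are given poly(A) tails. The mRNAs are bound by proteins such as Lrpprc and Slirp and translated on ribosomes inside the organelle. Most other subunits of the same complexes are encoded in the nucleus and imported, so that each complex is assembled from products of both genomes. Myc is a transcription factor that is known in many dividing cells to act on genes for cell growth and for mitochondria.

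The libraries held 8101219 estimated counts in Ncr1cre Myc wt/wt library 1 and between 54550907 and 64962491 in the other 5, so that the values of that library are the least precise. Values below are CPM, counts scaled to the size of the library with TMM factors, unless another unit is named, and the 3 libraries of a group are always listed in the order 1, 2 and 4. Myc RNA was at 200.5, 183 and 164 CPM in Ncr1cre Myc wt/wt and at 61.5, 64.6 and 76.5 CPM in Ncr1cre Myc fl/fl, and its mean in Ncr1cre Myc fl/fl was 37.0% of that in Ncr1cre Myc wt/wt (log2 fold change -1.44 ± 0.15 SE, adjusted p = 0.00189 by edgeR). This value is summed over the whole gene and does not set the floxed exons apart. All 12 NK cell markers listed for the check of the sort were present, and they summed to between 15620.1 and 16227 CPM in Ncr1cre Myc wt/wt and between 17155 and 18286 CPM in Ncr1cre Myc fl/fl. Markers of several other cell types were higher in Ncr1cre Myc fl/fl. The 6 granulocyte and monocyte progenitor markers, led by Mpo and Elane, summed to 82.5 to 125 CPM against 522 to 879 CPM. The 8 erythroid markers, led by Hba-a2 and Hbb-bs, summed to 46.6 to 285 CPM against 569 to 1188 CPM, and the 10 basophil and mast cell markers, led by Prss34 and Mcpt8, to 29.6 to 34.6 CPM against 114 to 327 CPM. Among these markers only Mcpt4 was at 0 in every library. Of the 8 basophil and mast cell markers tested, 7 had a log2 fold change above 0 and 1 went the other way, at -1.84 by edgeR. The 6 platelet markers (Pf4, Itga2b) and the 6 plasmacytoid dendritic cell markers (Irf8, Tcf4) also stood higher in every Ncr1cre Myc fl/fl library, at 22.2 to 70.3 and 697 to 875 CPM against 8.70 to 15.1 and 319.6 to 376 CPM. So did the 7 monocyte markers (Ccr2, Ly6c2), at 2096 to 2386 against 1667 to 1873 CPM. Ccr2 alone had means of 1561 CPM in Ncr1cre Myc wt/wt and 1855 CPM in Ncr1cre Myc fl/fl. Irf8 alone had means of 270 and 658 CPM, so that each gene made up most of the sum of its list. The sums of the 9 neutrophil markers (S100a8, S100a9) and the 6 T cell markers (Cd3g, Cd3d) overlapped between the groups, at 4.68 to 17.6 and 227 to 474 CPM in Ncr1cre Myc wt/wt and 16.9 to 32.2 and 237 to 317 CPM in Ncr1cre Myc fl/fl. Even so, all 8 neutrophil markers tested had a log2 fold change above 0 (median 1.81 by edgeR), as did 2 of the 5 T cell markers tested. The part of such cells in the values below was not tested, and in bulk RNA fewer cells of a type and less RNA per cell cannot be told apart.

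The mRNAs of the mitochondrial genome were on average less abundant in the CD27SP NK cells of Ncr1cre Myc fl/fl mice than in those of Ncr1cre Myc wt/wt mice. All 13 mt- genes had a log2 fold change below 0, between -0.84 for mt-Nd5 and -0.24 for mt-Nd2, with a median of -0.51. Of all genes tested, 48.5% had a log2 fold change below 0, and their median was 0.014. Together the 13 mRNAs had 12178, 12575 and 15951 CPM in Ncr1cre Myc wt/wt and 8158, 10966 and 8679.9 CPM in Ncr1cre Myc fl/fl, and every Ncr1cre Myc fl/fl library lay below every Ncr1cre Myc wt/wt library. For 8 of the 13 genes (mt-Nd3, mt-Nd5, mt-Co1, mt-Co2, mt-Co3, mt-Cytb, mt-Atp6 and mt-Atp8) the 3 Ncr1cre Myc fl/fl values were all below the 3 Ncr1cre Myc wt/wt values, and for none were they all above, where 15.1% of all tested genes had Ncr1cre Myc fl/fl values all below and 16.2% all above. None of the 13 passed the threshold (adjusted p below 0.01 and a log2 fold change of at least 0.5 in size) in edgeR's quasi-likelihood test, where 0.872% of all genes passed it in the lower direction and 1.28% in the higher. At an unadjusted p below 0.05 in the same test, 10 of the 13 were lower, where 10.2% of all genes were, and at an adjusted p below 0.05, 2 were lower (mt-Nd5 and mt-Co1), where 3.38% of all genes were. DESeq2 with the same model called 3 of them lower at the full threshold (mt-Nd5, mt-Co1 and mt-Co3), where it called 3.47% of all genes lower, and limma-trend called 0 (0.504% of all genes).

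The same libraries ranked first throughout. Ncr1cre Myc wt/wt library 4 had the highest Ncr1cre Myc wt/wt level for 13 of the 13 mt- genes, and Ncr1cre Myc fl/fl library 2 had the highest Ncr1cre Myc fl/fl level for 13 of the 13. Without the libraries numbered 4 the median log2 fold change of the mt- genes was -0.32, 2 of the 13 were lower at an unadjusted p below 0.05, where 8.18% of all genes were in the same fit, and mt-Nd2 stood at 0.16. In that fit mt-Nd3 stood at -0.35, mt-Nd4 at -0.34, mt-Co2 at -0.34, mt-Atp6 at -0.31 and mt-Atp8 at -0.29. Without Ncr1cre Myc wt/wt library 1, the shallowest library, and with no replicate block, the median was -0.65 and 13 of the 13 were lower at an unadjusted p below 0.05, where 12.2% of all genes were.

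**Figure D1:**
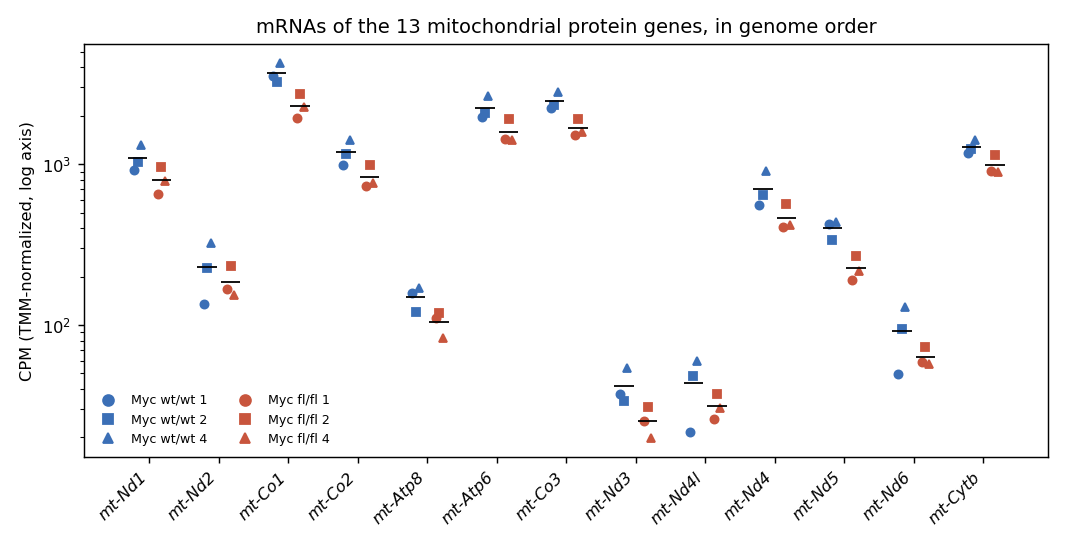
TMM-normalized CPM (log axis) of the 13 mt- genes in the order of the mitochondrial genome, 1 point for each library (blue Ncr1cre Myc wt/wt, red Ncr1cre Myc fl/fl, the shape giving the library number), with a bar at each group mean. Each red bar lies below the blue bar of the same gene, the triangle of Ncr1cre Myc wt/wt library 4 is the highest blue point for every gene, and the square of Ncr1cre Myc fl/fl library 2 is the highest red point for every gene.

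Complex I takes electrons from NADH into the respiratory chain, and 7 of its subunits are mt- genes. The lowest log2 fold change of the whole mitochondrial genome was that of mt-Nd5 (chrM:11742-13565 of GRCm38, plus strand). mt-Nd5 had 425, 339 and 437 CPM in Ncr1cre Myc wt/wt and 189.5, 269 and 216 CPM in Ncr1cre Myc fl/fl, so that the groups were separate and the Ncr1cre Myc fl/fl mean was 56.1% of that in Ncr1cre Myc wt/wt (log2 fold change -0.84 ± 0.18 SE, 95% interval -1.23 to -0.45, adjusted p = 0.0202 by edgeR). Over the alternative models its adjusted p ran from 5.65e-05 (DESeq2 with no replicate block) to 0.0948 (edgeR without the libraries numbered 1). mt-Nd3, a small membrane subunit of the same complex, had 37.4, 33.5 and 54.2 CPM in Ncr1cre Myc wt/wt and 25.4, 30.8 and 19.7 CPM in Ncr1cre Myc fl/fl. Its groups were also separate, but by a narrow gap between 30.8 and 33.5 CPM, with a log2 fold change of -0.71 ± 0.24 SE (adjusted p = 0.104 by edgeR), which was -1.01 without the libraries numbered 2 and -0.35 without those numbered 4.

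In the other 5 complex I genes the groups overlapped. mt-Nd4 had 557, 639 and 903 CPM in Ncr1cre Myc wt/wt and 404, 565 and 421 CPM in Ncr1cre Myc fl/fl, where only Ncr1cre Myc fl/fl library 2 came above the lowest Ncr1cre Myc wt/wt library (log2 fold change -0.58 ± 0.18 SE, adjusted p = 0.0859 by edgeR). mt-Nd1 had means of 1087 ± 209 CPM in Ncr1cre Myc wt/wt and 797 ± 155 CPM in Ncr1cre Myc fl/fl (SD, n = 3) and a log2 fold change of -0.45 ± 0.16 SE, with an adjusted p of 0.119 by edgeR. The 3 genes with the widest spread among the Ncr1cre Myc wt/wt libraries were mt-Nd4l, mt-Nd6 and mt-Nd2, with coefficients of variation of 45.3%, 43.8% and 41.5%. In each of them the shallow Ncr1cre Myc wt/wt library 1 was below all 3 Ncr1cre Myc fl/fl libraries, at 21.7, 49.8 and 135 CPM. Their log2 fold changes were -0.38, -0.45 and -0.24, with adjusted p-values of 0.344, 0.292 and 0.617 by edgeR. Without that library and with no replicate block they were -0.81, -0.85 and -0.59 (adjusted p = 0.0320, 0.0221 and 0.123 by edgeR), and without the libraries numbered 4 they were -0.093, -0.095 and 0.16. mt-Nd6 is the only mt- protein gene on the minus strand (chrM:13552-14070) and shares 14 bases with mt-Nd5. The library kit keeps no strand, so reads from mt-Nd6 and from the opposite strand cannot be told apart.

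Complex III passes electrons to cytochrome c, and its only mt- subunit is cytochrome b, encoded by mt-Cytb. mt-Cytb had 1173, 1245 and 1413 CPM in Ncr1cre Myc wt/wt and 911, 1147 and 892 CPM in Ncr1cre Myc fl/fl. The groups were separate, though the difference was among the smaller ones of the mt- genes (log2 fold change -0.38 ± 0.15 SE, adjusted p = 0.160 by edgeR). Complex IV, cytochrome c oxidase, hands the electrons to oxygen through a catalytic core of 3 mt- subunits, and in all 3 genes the groups were separate and lower in Ncr1cre Myc fl/fl, as in 15.1% of all tested genes. mt-Co1, whose product carries the site of oxygen reduction, had 3521, 3245 and 4267 CPM in Ncr1cre Myc wt/wt and 1939.8, 2726 and 2269 CPM in Ncr1cre Myc fl/fl (62.9% of the Ncr1cre Myc wt/wt mean, log2 fold change -0.67 ± 0.17 SE, 95% interval -1.04 to -0.31, adjusted p = 0.0374 by edgeR). Its adjusted p ran from 0.00153 (DESeq2 with no replicate block) to 0.198 (edgeR without the libraries numbered 4). mt-Co2, which receives the electrons from cytochrome c, had 986, 1149.8 and 1419 CPM in Ncr1cre Myc wt/wt and 736, 986 and 764 CPM in Ncr1cre Myc fl/fl. Here Ncr1cre Myc wt/wt library 1 and Ncr1cre Myc fl/fl library 2 were nearly equal, and the log2 fold change was -0.51 ± 0.16 SE (adjusted p = 0.0848 by edgeR). mt-Co3 had 2224, 2336 and 2815 CPM in Ncr1cre Myc wt/wt and 1512, 1907 and 1584 CPM in Ncr1cre Myc fl/fl, with a log2 fold change of -0.56 ± 0.15 SE (adjusted p = 0.0512 by edgeR, over the alternative models 0.00398 to 0.301).

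Complex V, the ATP synthase, has 2 mt- subunits, mt-Atp6 in the proton channel and the small mt-Atp8 beside it. Both are read from a shared mRNA, and the annotation places the start of mt-Atp6 inside mt-Atp8 over 43 bases, shown here because reads from this stretch can be assigned to either gene. The capitals mark the start codon of mt-Atp6.
mt-Atp8 and mt-Atp6 overlap, GRCm38 chrM:7927-7969, plus strand: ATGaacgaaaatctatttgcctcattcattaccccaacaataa
mt-Atp6 had 1972, 2072 and 2639.9 CPM in Ncr1cre Myc wt/wt and 1428, 1916 and 1406 CPM in Ncr1cre Myc fl/fl, and mt-Atp8 had 158, 121 and 169 CPM in Ncr1cre Myc wt/wt and 111, 119 and 83.4 CPM in Ncr1cre Myc fl/fl. In both genes Ncr1cre Myc fl/fl library 2 came within a few percent of the lowest Ncr1cre Myc wt/wt library without reaching it. The log2 fold changes were -0.50 ± 0.17 SE for mt-Atp6 and -0.52 ± 0.18 SE for mt-Atp8, with adjusted p-values of 0.111 and 0.125 by edgeR. mt-Nd4l and mt-Nd4 likewise share 7 bases, and mt-Atp6 and mt-Co3 share 1.

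The balance between the mt- mRNAs was similar in order in both genotypes, with mt-Nd5 and mt-Cytb as the genes whose shares did not overlap. TPM divides counts by the effective length of a transcript and scales them to the library. In TPM, the order of the Ncr1cre Myc wt/wt means ran from mt-Atp6 (4164 ± 546, SD, n = 3) and mt-Co3 (4019 ± 481) through mt-Co1, mt-Atp8, mt-Co2, mt-Cytb, mt-Nd1 and mt-Nd4 down to mt-Nd4l, mt-Nd6, mt-Nd2, mt-Nd5 and mt-Nd3 (206 ± 46.2). The order of the Ncr1cre Myc fl/fl means was the same but for mt-Nd6 and mt-Nd2, which changed places. The place of the short mt-Atp8 rests on its effective length. In Ncr1cre Myc wt/wt library 2 it had 6808 counts on 204 bases and 2024 TPM. mt-Co1 had 183109 counts on 1545 bases and 2514 TPM in the same library. Within Ncr1cre Myc wt/wt the library ranges separated mt-Co3 from mt-Co1, mt-Co2 from mt-Cytb, mt-Nd1 from mt-Nd4 and mt-Nd4 from mt-Nd4l, and all other neighbours in the order overlapped. As a share of the summed mt- counts, mt-Nd5 took 3.49, 2.70 and 2.74% in Ncr1cre Myc wt/wt and 2.32, 2.45 and 2.49% in Ncr1cre Myc fl/fl, so that it was lower within the mitochondrial pool too. mt-Cytb was the reverse, with 9.63, 9.90 and 8.86% in Ncr1cre Myc wt/wt and 11.2, 10.5 and 10.3% in Ncr1cre Myc fl/fl. Each of these 2 had p = 0.1 in the two-sided exact permutation test, the smallest that 3 against 3 libraries allow, and 0.65 after Benjamini-Hochberg adjustment over the 13 shares. The shares of the other 11 genes overlapped between the groups, among them mt-Co1 with 27.2 ± 1.59% in Ncr1cre Myc wt/wt and 24.9 ± 1.18% in Ncr1cre Myc fl/fl (SD, n = 3).

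As a share of each library, the mt- genes took 1.16, 1.29 and 1.61% of all estimated counts in Ncr1cre Myc wt/wt and 0.829, 1.10 and 0.861% in Ncr1cre Myc fl/fl, or 1.35 ± 0.232% against 0.930 ± 0.148% (SD, n = 3). The groups did not overlap, and the exact permutation test gave p = 0.1 (two-sided), the smallest possible here. The difference of the means was -0.421 percentage points with all libraries and -0.258 without those numbered 4. The widest 95% Wilson interval, that of the shallow Ncr1cre Myc wt/wt library 1, ran from 1.15% to 1.16%, so that counting error, which is all that this interval covers, was small beside the spread between libraries. Only mRNAs enter this share, since the 2 rRNA and 22 tRNA genes of the mitochondrial genome were not analysed here, and the libraries were made by poly(A) selection. The 25 nuclear members together took 0.121, 0.106 and 0.103% in Ncr1cre Myc wt/wt and 0.0885, 0.0954 and 0.0884% in Ncr1cre Myc fl/fl, also without overlap (p = 0.1, two-sided exact permutation test).

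To set both genomes side by side, the summed TPM of the 13 mt- genes was divided by that of 71 nuclear subunits of complexes I, III, IV and V. The log2 ratio was -0.66, -0.77 and -0.52 in Ncr1cre Myc wt/wt and -1.03, -0.80 and -1.02 in Ncr1cre Myc fl/fl. The means were -0.65 ± 0.13 and -0.95 ± 0.13 (SD, n = 3), with the nearest libraries of the groups close together and p = 0.1 in the two-sided exact permutation test. The difference of the means was -0.30 with all libraries and -0.20 without those numbered 4. Computed from counts, the same ratio overlapped between the groups (p = 0.2, exact permutation test). The summed TPM of those nuclear subunits overlapped as well (27876, 32689 and 32779 in Ncr1cre Myc wt/wt, 27484, 28984 and 26709.9 in Ncr1cre Myc fl/fl). Their summed CPM did not overlap, at 13017, 13159 and 13539 in Ncr1cre Myc wt/wt and 10692, 11607 and 10507 in Ncr1cre Myc fl/fl (p = 0.1, two-sided exact permutation test). Against the 25 nuclear members of the expression machinery, the log2 ratio of summed TPM was 4.14 ± 0.38 in Ncr1cre Myc wt/wt and 3.97 ± 0.15 in Ncr1cre Myc fl/fl, with overlapping groups (p = 0.6, exact permutation test), and its difference changed sign without the libraries numbered 4.

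**Figure D2:**
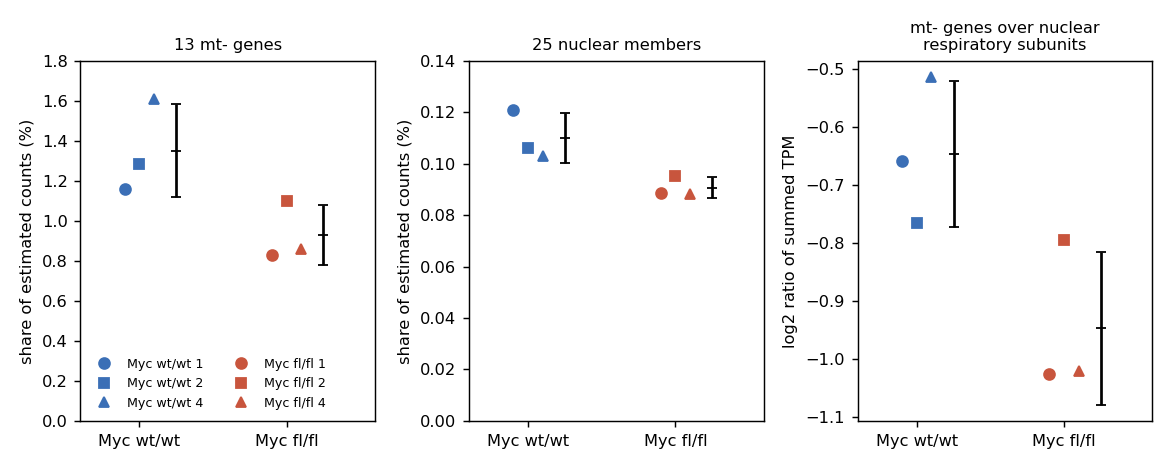
Left and middle, share of all estimated counts (%) on the 13 mt- genes and on the 25 nuclear members; right, log2 ratio of the summed TPM of the mt- genes to that of 71 nuclear respiratory subunits. Each point is a library (blue Ncr1cre Myc wt/wt, red Ncr1cre Myc fl/fl), and the bars give the mean ± SD of 3 libraries. In each panel all red points lie below all blue points, by little in the right panel (-0.77 against -0.80 for the nearest libraries).

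Most nuclear genes of the expression machinery had log2 fold changes below 0, with C1qbp as the gene of the smallest p-value and Polrmt as the one with the highest log2 fold change. Of the 25 genes, 22 had a log2 fold change below 0, where 48.5% of all tested genes did (20 to 23 of the 25 over the alternative settings), and the median was -0.29 (range -0.84 to 0.29). In 13 of the 25 the 3 Ncr1cre Myc fl/fl values were all below the 3 Ncr1cre Myc wt/wt values, where 15.1% of all genes were, and in none were they all above. None of the 25 passed the full threshold in edgeR's test with the replicate block, where 0.872% of all genes were called lower and 1.28% higher. At an unadjusted p below 0.05, 7 were lower and none higher, where 10.2% and 12.4% of all genes were, and at an adjusted p below 0.05, 1 was lower (C1qbp), where 3.38% of all genes were. DESeq2 called 1 of the 25 lower at the full threshold (3.47% of all genes) and limma-trend 0 (0.504% of all genes), and edgeR without the replicate block, which called 1.19% of all genes lower, called 1, in both cases C1qbp. In 20 of the 25 genes Ncr1cre Myc wt/wt library 1 had the highest Ncr1cre Myc wt/wt level. Without the libraries numbered 1 the median log2 fold change was -0.18 and 2 of the 25 were lower at an unadjusted p below 0.05, a share near the 8.89% of all genes in the same fit. The median was -0.36 and -0.32 without the libraries numbered 2 and 4.

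**Figure D3:**
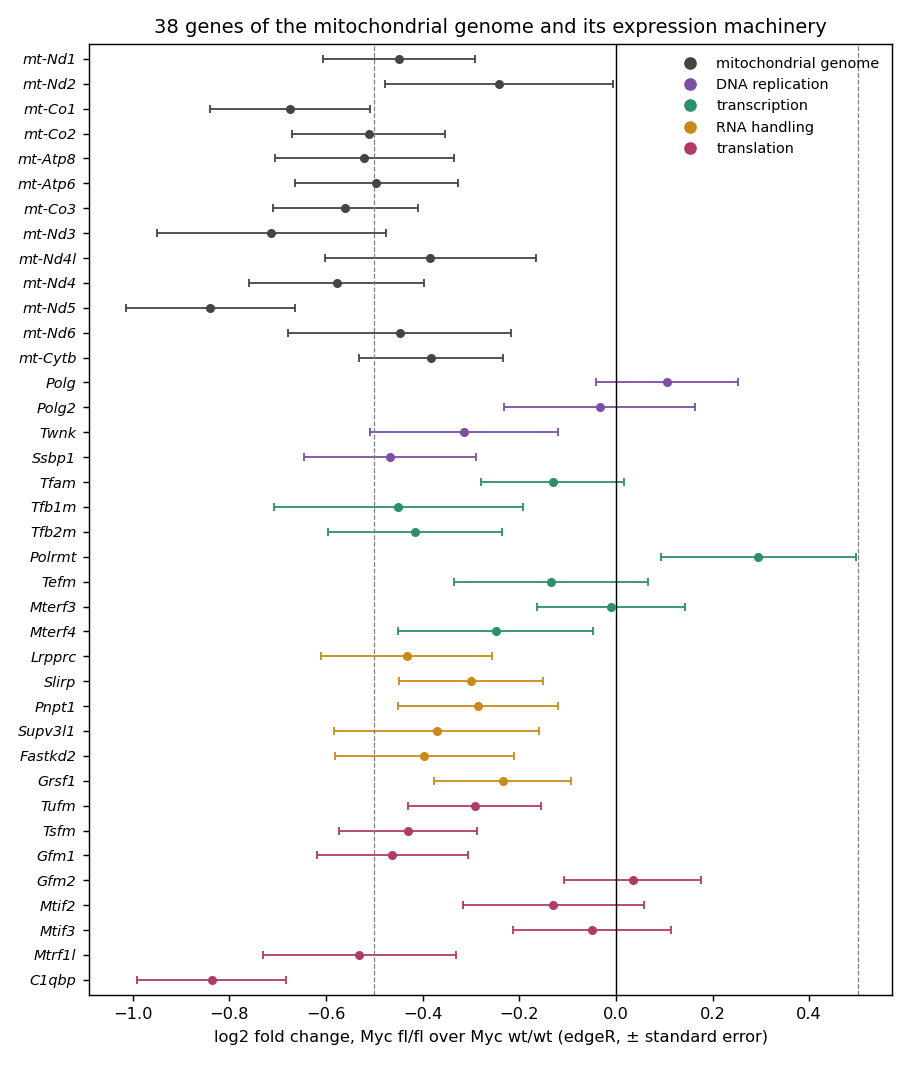
Log2 fold change of the Ncr1cre Myc fl/fl group relative to the Ncr1cre Myc wt/wt group (x axis) for each of the 38 genes, with bars of ± 1 standard error from edgeR, coloured by role; dashed lines mark a log2 fold change of 0.5 in size. All 13 mt- genes and 22 of the 25 nuclear genes lie left of 0, from -0.84 (mt-Nd5) and -0.84 (C1qbp) to 0.29 (Polrmt).

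The promoters of the nuclear members were read from RefSeq (GRCm38.p6) as windows of 250 bases before to 50 bases after the start, and 23 of the 25 genes matched, with 25 windows in all. The 2 others are Mterf3 and Mtif3. The windows were searched on both strands for the letters bound by factors known to act on such genes. CCGGAAG, the core of sites for ETS factors such as GABP, was in 14 of the 25 windows, or 56%, and in 8.86% of all 32851 promoter windows of the same length. CACGCG, a variant of the E-box that Myc and Max bind, was in 9 windows, or 36% (9.27% of all), and CATGTG, another variant, in 5, or 20% (14.2% of all). CACGTG, the canonical E-box, was in 0 of the 25 windows and in 7.15% of all. The site of NRF-1, a factor of nuclear genes for mitochondria, can overlap CACGCG and was in 2 windows, or 8% (4.6% of all), in Gfm2 and Polrmt. The member windows had a median GC content of 60% and 21 CpG dinucleotides, against 52.7% and 7 over all windows. A match is given as letters only, and no binding was measured.
The windows that follow are 30 bases each, on the gene's strand, with the motif in capitals; they are shown for genes on either side of a log2 fold change of 0. CCGGAAG, or CTTCCGG where it lies on the opposite strand, lies between 38 and 48 bases upstream of the start in the windows shown, and Slirp held further matches at 146 and 11 bases upstream. In members not shown for this motif, matches lay from 248 bases upstream (Grsf1) to just past the start (C1qbp).
Tfam, chr10:71238073-71238102, minus strand: cctgccgcggaCCGGAAGtccgggcttccc
Polg, chr7:79466293-79466322, minus strand: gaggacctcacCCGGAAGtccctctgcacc
Polrmt, chr10:79746606-79746635, minus strand: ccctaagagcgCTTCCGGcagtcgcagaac
Ssbp1, chr6:40471410-40471439, plus strand: ggctccgtgcgCCGGAAGcgagccgctggc
Slirp, chr12:87443837-87443866, plus strand: aacagtttggcCCGGAAGcagaactcgaaa
CACGCG was found in these genes, among others.
Polg, chr7:79466410-79466439, minus strand: tatccattaggcCACGCGgccgccagcgag
Tsfm, chr10:127030867-127030896, minus strand: gcatcctcgcgcCACGCGttctgggaggcg
Supv3l1, chr10:62449786-62449815, minus strand: ttccttcaggcgCACGCGggggcagccctg
Genes with log2 fold changes above 0 (Polg, Polrmt) and genes whose Ncr1cre Myc fl/fl values were all below those of Ncr1cre Myc wt/wt (Ssbp1, Slirp, Tsfm) were thus both among those with a match.

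Among the genes of DNA replication, Ssbp1, the single-stranded DNA-binding protein of the mitochondrial replication fork, had 127, 78.5 and 78.1 CPM in Ncr1cre Myc wt/wt and 63.0, 68.9 and 66.9 CPM in Ncr1cre Myc fl/fl (log2 fold change -0.47 ± 0.18 SE, adjusted p = 0.151 by edgeR). Ncr1cre Myc wt/wt library 1 stood well above the rest, and without the libraries numbered 1 the log2 fold change was -0.21. Twnk, the helicase that opens the DNA ahead of the polymerase, had 15.9, 13.3 and 14 CPM in Ncr1cre Myc wt/wt and 12.5, 10.1 and 12.1 CPM in Ncr1cre Myc fl/fl, with separate groups and a log2 fold change of -0.31 ± 0.19 SE (adjusted p = 0.389 by edgeR). In both subunits of the polymerase the groups overlapped. Polg, its catalytic subunit, had means of 65.7 ± 11.6 CPM in Ncr1cre Myc wt/wt and 69.8 ± 0.600 CPM in Ncr1cre Myc fl/fl (SD, n = 3) and a log2 fold change of 0.10 ± 0.15 SE. Polg2, its accessory subunit, had a log2 fold change of -0.033 ± 0.20 SE. The 95% intervals, -0.22 to 0.43 for Polg and -0.48 to 0.41 for Polg2, hold changes of either sign, and both estimates changed sign when 1 replicate number was left out.

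The core transcription machinery was mixed. Polrmt, the RNA polymerase, was 1 of the 3 nuclear members with a log2 fold change above 0, at 0.29 ± 0.20 SE. Its level was 30.3, 32.9 and 21.1 CPM in Ncr1cre Myc wt/wt and 30.1, 33.4 and 38.3 CPM in Ncr1cre Myc fl/fl, with overlapping groups (adjusted p = 0.443 by edgeR), and without the libraries numbered 4 the estimate was -0.013, Ncr1cre Myc wt/wt library 4 holding the lowest value of the 6. With offsets from effective lengths the estimate was 0.062. Tfb2m, which opens the promoter together with the polymerase, had 36.9, 23.8 and 23.7 CPM in Ncr1cre Myc wt/wt and 21.8, 20.7 and 19.3 CPM in Ncr1cre Myc fl/fl. The groups were separate, with Ncr1cre Myc wt/wt library 1 far above the other 2 (log2 fold change -0.42 ± 0.18 SE, adjusted p = 0.207 by edgeR). Tfam, which packs the genome and bends its promoters, overlapped between the groups, with 48.8, 43.6 and 52.7 CPM in Ncr1cre Myc wt/wt and 43.0, 46.5 and 42.6 CPM in Ncr1cre Myc fl/fl (log2 fold change -0.13 ± 0.15 SE, 95% interval -0.46 to 0.20). Its log2 fold change was -0.24 without the libraries numbered 2 and -0.060 without those numbered 4. Tfb1m, a methyltransferase that modifies the small ribosomal RNA, had 15.3, 11.7 and 8.46 CPM in Ncr1cre Myc wt/wt and 7.10, 9.55 and 8.49 CPM in Ncr1cre Myc fl/fl, and its log2 fold change of -0.45 ± 0.26 SE was within the wide spread of the Ncr1cre Myc wt/wt libraries. Without the libraries numbered 1 the log2 fold change was -0.14 for Tfb1m and -0.25 for Tfb2m, and without those numbered 4 it was -0.71 for Tfb1m. Tefm, the elongation factor, and Mterf4, which works with an rRNA methyltransferase in assembly of the ribosome, had log2 fold changes of -0.13 ± 0.20 SE and -0.25 ± 0.20 SE, with overlapping groups, and Tefm stood at -0.21 without the libraries numbered 2 and at -0.028 with offsets from effective lengths. Mterf3, a regulator of mitochondrial transcription, had means of 39.2 ± 7.21 CPM in Ncr1cre Myc wt/wt and 38.4 ± 1.13 CPM in Ncr1cre Myc fl/fl (SD, n = 3) and a log2 fold change of -0.010.

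All 6 genes of RNA handling had a log2 fold change below 0, from -0.43 to -0.23, and in 5 of them the groups were separate, where 48.5% of all tested genes were below 0 and 15.1% had all Ncr1cre Myc fl/fl values below the others. None of the 6 had an adjusted p below 0.05 in edgeR's test. Lrpprc and Slirp form a complex that holds mature mitochondrial mRNAs stable. Lrpprc had 94.6, 60.3 and 63.8 CPM in Ncr1cre Myc wt/wt and 49.2, 56.3 and 52.8 CPM in Ncr1cre Myc fl/fl (log2 fold change -0.43 ± 0.18 SE, adjusted p = 0.180 by edgeR), with Ncr1cre Myc wt/wt library 1 far above the other 2. Slirp, in contrast, was tight within both groups, with 40.3, 41.5 and 43.2 CPM in Ncr1cre Myc wt/wt and 32.7, 36.9 and 32.0 CPM in Ncr1cre Myc fl/fl (log2 fold change -0.30 ± 0.15 SE, adjusted p = 0.272 by edgeR). Pnpt1 and Supv3l1 make up the nuclease and helicase of the mitochondrial degradosome. Pnpt1 had 65.5, 53.0 and 52.5 CPM in Ncr1cre Myc wt/wt and 39.9, 51.5 and 48.5 CPM in Ncr1cre Myc fl/fl, with little distance between Ncr1cre Myc fl/fl library 2 and the lower 2 Ncr1cre Myc wt/wt libraries (log2 fold change -0.29 ± 0.17 SE). Supv3l1 was the only gene of the 6 whose groups overlapped, with means of 30.9 ± 10.2 CPM in Ncr1cre Myc wt/wt and 23.0 ± 1.11 CPM in Ncr1cre Myc fl/fl (SD, n = 3) and a log2 fold change of -0.37 ± 0.21 SE. Fastkd2 and Grsf1 are RNA-binding proteins of the granules in which new mitochondrial RNA is processed. Fastkd2 had 40.8, 29.6 and 32.0 CPM in Ncr1cre Myc wt/wt and 22.6, 25.7 and 28.8 CPM in Ncr1cre Myc fl/fl, and Grsf1 had 53.1, 56.8 and 55.9 CPM in Ncr1cre Myc wt/wt and 46.8, 52.9 and 41.9 CPM in Ncr1cre Myc fl/fl. The groups of both were separate by small gaps, with log2 fold changes of -0.40 ± 0.18 SE and -0.23 ± 0.14 SE (adjusted p = 0.242 and 0.376 by edgeR). Without the libraries numbered 1 the log2 fold changes were -0.19 for Lrpprc, -0.079 for Pnpt1, -0.088 for Supv3l1 and -0.18 for Fastkd2.

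The translation factors held the gene with the smallest p-value of the whole set. C1qbp (chr11:70977836-70983026 of GRCm38, minus strand) encodes a mitochondrial matrix protein needed for translation in the organelle. C1qbp had 114, 92.2 and 93.2 CPM in Ncr1cre Myc wt/wt and 50.5, 62.2 and 54.4 CPM in Ncr1cre Myc fl/fl, with a wide gap between the groups, and its Ncr1cre Myc fl/fl mean was 55.8% of that in Ncr1cre Myc wt/wt (log2 fold change -0.84 ± 0.15 SE, 95% interval -1.18 to -0.49, adjusted p = 0.0118 by edgeR). This adjusted p just missed the limit of 0.01, and over the alternative models it ran from 5.00e-06 (DESeq2 with no replicate block) to 0.0527 (edgeR without the libraries numbered 1), with 0.00660 in edgeR with no replicate block.

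The elongation factors Tufm, which brings charged tRNAs to the ribosome, Tsfm, which recharges Tufm with GTP, and Gfm1, which moves the ribosome along, all had separate groups, as 15.1% of all tested genes did in the lower direction, and none of the 3 had an adjusted p below 0.05 by edgeR. Tsfm was the tightest of them, with 49.1, 45.4 and 44.5 CPM in Ncr1cre Myc wt/wt and 34.7, 34.6 and 33.7 CPM in Ncr1cre Myc fl/fl (log2 fold change -0.43 ± 0.14 SE, adjusted p = 0.101 by edgeR). Gfm1 had 74.1, 58.5 and 60.8 CPM in Ncr1cre Myc wt/wt and 41.8, 47.5 and 50.3 CPM in Ncr1cre Myc fl/fl (log2 fold change -0.46 ± 0.16 SE, adjusted p = 0.108 by edgeR), and without the libraries numbered 1 its log2 fold change was -0.29. Tufm had 116, 112 and 105 CPM in Ncr1cre Myc wt/wt and 82.4, 104 and 86.6 CPM in Ncr1cre Myc fl/fl, where Ncr1cre Myc fl/fl library 2 nearly met Ncr1cre Myc wt/wt library 4 (log2 fold change -0.29 ± 0.14 SE, adjusted p = 0.247 by edgeR). Mtrf1l, a release factor that ends translation at stop codons, had 22.2, 17.5 and 18.8 CPM in Ncr1cre Myc wt/wt and 12.2, 14.98 and 13.01 CPM in Ncr1cre Myc fl/fl. Its groups were separate, with a log2 fold change of -0.53 ± 0.20 SE (adjusted p = 0.147 by edgeR). The other 3 factors overlapped between the groups. Gfm2, which splits the ribosome for recycling, had a log2 fold change of 0.034 ± 0.14 SE, and the initiation factors Mtif2 and Mtif3 had -0.13 ± 0.19 SE and -0.050 ± 0.16 SE. Their 95% intervals were -0.28 to 0.35, -0.55 to 0.29 and -0.42 to 0.32, and each estimate changed sign when 1 replicate number was left out.

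**Figure D4:**
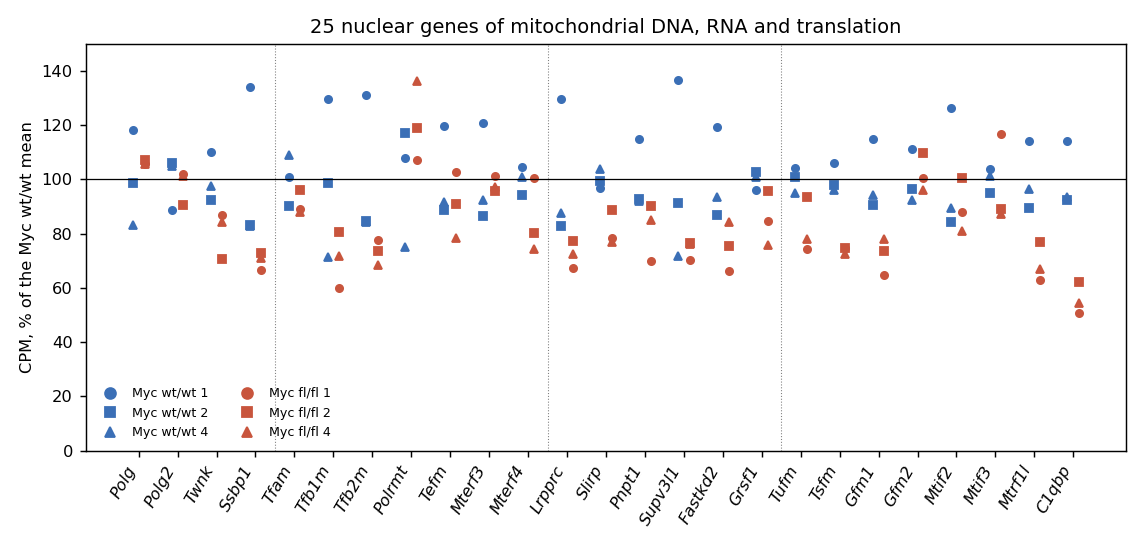
CPM of the 25 nuclear genes in each library, as a percentage of the Ncr1cre Myc wt/wt mean of the same gene (y axis, line at 100%), with dotted lines between replication, transcription, RNA handling and translation. The blue circles of Ncr1cre Myc wt/wt library 1 are the highest Ncr1cre Myc wt/wt points in 20 of the 25 genes, and the red points of C1qbp, with a mean of 55.8%, are the lowest as a group.

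The wider set of nuclear genes for mitochondrial DNA maintenance, RNA processing, ribosome assembly, other translation factors, tRNA synthetases and regulators of mitochondrial biogenesis held 120 listed genes, of which 115 were tested. Of these, 90 had a log2 fold change below 0 (median -0.23), 32 were lower and 2 higher at an unadjusted p below 0.05, where 10.2% and 12.4% of all genes were, and 1 of the 115 was lower at the full threshold, near the 0.872% of all genes that were. That gene was Noa1, a GTPase needed to build the mitochondrial ribosome, which fell from 51.6, 36.2 and 35.2 CPM in Ncr1cre Myc wt/wt to 20.3, 20.0 and 19.0 CPM in Ncr1cre Myc fl/fl (log2 fold change -1.03 ± 0.17 SE, adjusted p = 0.00825 by edgeR). Without the libraries of any 1 replicate number its adjusted p was between 0.0130 and 0.0386, above the limit of 0.01 each time, and over all models it ran from 9.99e-07 to 0.0386. Among the 22 genes of DNA maintenance, 15 were below 0, and Apex1, a DNA repair endonuclease, had the smallest p (45.1 ± 2.03 CPM in Ncr1cre Myc wt/wt and 25.8 ± 1.07 CPM in Ncr1cre Myc fl/fl, SD, n = 3, adjusted p = 0.0124 by edgeR, and 0.00538 with no replicate block). Of 29 RNA processing genes tested, 25 were below 0, led by Pus1, which makes pseudouridine in tRNA (log2 fold change -0.91 ± 0.21 SE, adjusted p = 0.0284 by edgeR). Ribosome assembly had 16 of 23 below 0, and the other translation factors had 8 of 10, led by Mrrf, the recycling factor (log2 fold change -0.77 ± 0.23 SE, adjusted p = 0.0706 by edgeR). Of the 22 tRNA synthetase genes, 20 were below 0, led by Gars, which charges glycine tRNA in both the cytosol and mitochondria (log2 fold change -0.62 ± 0.15 SE, adjusted p = 0.0350 by edgeR).

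Of the 9 regulators of biogenesis, 6 were below 0. Ppargc1b, which encodes the coactivator PGC-1β, had 7.41, 8.44 and 6.95 CPM in Ncr1cre Myc wt/wt and 3.52, 3.48 and 3.79 CPM in Ncr1cre Myc fl/fl, the largest log2 fold change of the wider set in size at -1.08 ± 0.25 SE (adjusted p = 0.0334 by edgeR). Of the 78 proteins of the mitochondrial ribosome, 76 had a log2 fold change below 0 (median -0.32), 35 were lower at an unadjusted p below 0.05, and none passed the full threshold in edgeR. With no replicate block 1 was called lower, where 1.19% of all genes were, and DESeq2 called 5, where it called 3.47% of all genes lower. Of the 71 nuclear subunits of complexes I, III, IV and V, 67 were below 0 (median -0.24), 18 were lower at an unadjusted p below 0.05, and none passed in edgeR, with 1 lower with no replicate block and 2 in DESeq2, against the same shares of all genes. In edgeR, 10.2% of all tested genes were lower at that unadjusted p and 0.872% at the full threshold, and the median log2 fold change was 0.014.

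**Figure D5:**
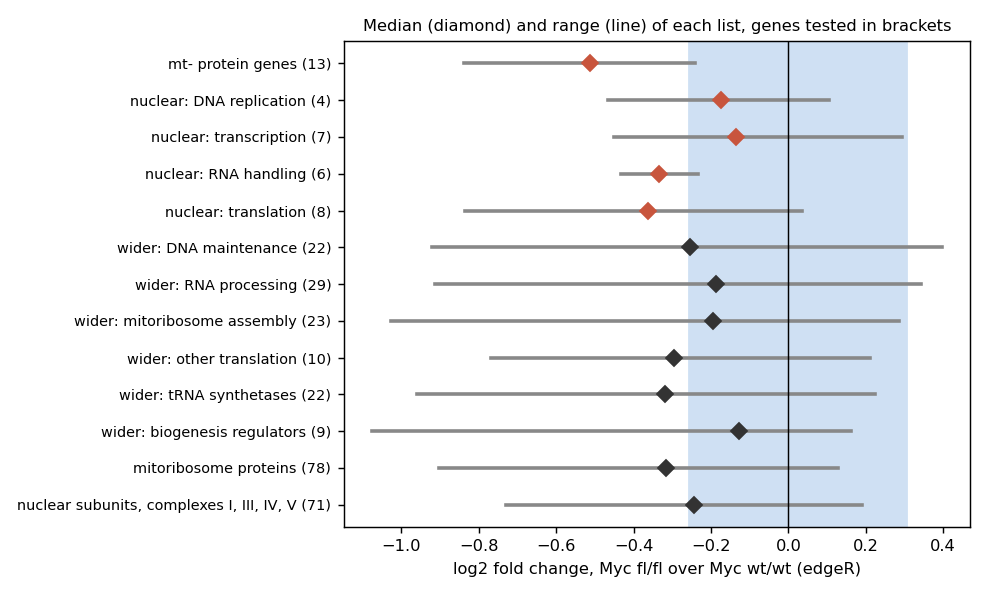
Median (diamond) and range (line) of the log2 fold changes of the Ncr1cre Myc fl/fl group relative to the Ncr1cre Myc wt/wt group in each list, with the number of genes tested in brackets; red marks the 38 members and black the wider lists, and the blue band is the interquartile range of all tested genes. The mt- genes have the lowest median, -0.51, every list has a median below 0, and the medians of several other lists also lie left of the band, whose left edge is at -0.26.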

How the data were processed

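RNA-seq was done on 6 libraries of CD27SP NK cells, made with the SMART-Seq v4 kit after poly(A) selection and sequenced as single-end reads of 100 bases. The authors quantified transcripts and deposited, for each of 100583 mouse transcripts, a raw estimated count, an effective length, and a TPM value, which corrects for the effective length. The columns are those that kallisto writes, whereas the methods and the submitters' processing notes name Salmon and GRCh38. The transcript identifiers are mouse identifiers, and 100239 of them matched GENCODE M21 (GRCm38). The unmatched transcripts held 0.129% to 0.169% of the counts of a library.

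Estimated counts were summed by gene symbol (25690 symbols) and rounded. Genes were filtered with edgeR's filterByExpr (minimum count 10, 15474 genes kept), scaled by TMM and compared with edgeR's quasi-likelihood test (4.0.16, R 4.3.3) with trended dispersions and with the replicate number in the model as a block, since the results of the study call this comparison paired, while its methods do not say how libraries were paired. P-values were adjusted by Benjamini-Hochberg over all 15474 genes, and the threshold was an adjusted p below 0.01 together with a log2 fold change of at least 0.5 in size. A log2 fold change below 0 means a lower level in Ncr1cre Myc fl/fl. Sums, shares and ratios were compared by two-sided exact permutation tests (scipy 1.17.1), which were unpaired and did not use the replicate number. The test was checked on simulated counts. The members of a group were distinct libraries (chi-square per degree of freedom at least 39.2 for every pair).

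Alternatives were DESeq2 (1.42.0), limma-trend (3.58.1, prior count 2), other scalings, other count filters, offsets from effective lengths, no replicate block, and leaving out each replicate number. All 38 members could be named, with full values for those whose groups did not overlap, and from each wider list the genes past the threshold and the gene of the smallest p. The members and lists were chosen with earlier results of these data known. The full sort gate and 1 list of marker genes are not reported here.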

Additional observations from a re-analysis of the deposited data

How the results depend on the processing

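The log2 fold changes of the members kept their sign and their side of the threshold under 470 of 494 combinations of gene and alternative, passed the threshold under 9 more and changed sign under 15. When a replicate number was left out, the log2 fold change ran from -0.52 to 0.16 for mt-Nd2, -0.037 to 0.23 for Polg and -0.013 to 0.45 for Polrmt, and from -0.15 to 0.016 for Mtif3, each with the change of sign without replicate 4. It ran from -0.14 to 0.078 for Polg2 and -0.033 to 0.12 for Gfm2 (sign changed without replicate 2), and from -0.078 to 0.11 for Mterf3 and -0.32 to 0.057 for Mtif2 (without replicate 1). Signs also changed for Polg (-0.098) and Mterf3 (0.031) with offsets from effective lengths, for Mterf3 with library sizes only (0.0032), without a filter (0.0033) and with at least 10 counts in every library (0.016), and for Mterf3 (0.12) and Mtif2 (0.036) without Ncr1cre Myc wt/wt replicate 1 and with no replicate block, an alternative chosen after seeing the data. The difference in the log2 ratio of mt- genes to nuclear members ran from -0.34 to 0.076, the latter without replicate 4, against -0.17 with all libraries. The cause was not tested.

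The number of mt- genes past the threshold, 0 as reported, was 3 in DESeq2, 2 without a filter and 2 at an adjusted p below 0.05 with no fold limit, and 0 to 1 when a replicate number was left out. For the nuclear members, 0 lower as reported, it was 1 in DESeq2, 1 without a filter and 1 at an adjusted p below 0.05. For the wider lists, 1 as reported, it was 11 in DESeq2, 6 without a filter, 12 at an adjusted p below 0.05, 0 in limma-trend, with library sizes only, with offsets from effective lengths and by the largest adjusted p of the 3 tools, and 0 without any 1 replicate number. The number of mt- genes whose share of the mt- pool did not overlap between the groups, 2 as reported, was 3 to 5 when a replicate number was left out.

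Of all genes, 135 were lower and 198 higher. The lower count was 537 in DESeq2, 78 in limma-trend, 25 with library sizes only, 8 with offsets from effective lengths, 378 without a filter, 523 at an adjusted p below 0.05, 78 by the largest adjusted p of the 3 tools, and 10 to 114 without a replicate number. The higher count was 643 in DESeq2, 49 with library sizes only, 24 with offsets from effective lengths, 524 without a filter, 689 at an adjusted p below 0.05, and 49 to 162 without a replicate number. Without Ncr1cre Myc wt/wt replicate 1 and with no replicate block it was 113.

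Without the replicate block, 184 genes were lower and 203 higher, 0 mt- genes and 1 nuclear member (C1qbp) passed, and 2 genes of the wider lists did. Further counts with no replicate block were chosen after seeing the data: at an adjusted p below 0.05, 691 lower and 795 higher, with 3 mt- genes, 2 nuclear members and 15 genes of the wider lists, and by the largest adjusted p of the 3 tools, 124 higher and 1 nuclear member. The pairing behind the block was not shown by the data: the deviations of same-numbered libraries from their group means correlated at -0.012, -0.020 and 0.050, none above 0.1, and not every library correlated best with its own number.

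In GENCODE M21, 22 nuclear transcripts resemble an mt- mRNA (7 of them at 99% identity or more). Of the 22, 0 were analysed here, so that reads from such copies of mitochondrial DNA could not be added to the mt- genes. The 2 mitochondrial rRNA genes were not analysed here either, so that the totals used were already without them. With 3 libraries a group, and 1 of them at 8101219 counts, tests of single sums cannot go below p = 0.1 (exact permutation test).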
